A study of Mus musculus with 6 samples.

Results

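Oligonucleotide probes named for mouse long intergenic noncoding RNAs (lincRNAs) were examined in the spleen, in experimental autoimmune encephalomyelitis (EAE) and in control mice. They were chosen by name alone, as every probe whose name starts with mouselincRNA, and numbered 649 of the 60915 non-control probes on the array. A name holds a number, a sign and a suffix, as in mouselincRNA0869-_P1, and the sign was read as the strand. No file used here says what the sign means, and since most numbers carry both signs it cannot be the annotated strand of a single transcript, so strand below means the sign in the name. There were 322 probes with a plus sign and 327 with a minus sign, spread over 332 numbers between 2 and 1671. Of these numbers, 317 had a probe of each sign, 5 had a + probe alone and 10 had a - probe alone. Each probe had 1 spot per array, and none of these spots was saturated or flagged as an outlier. The probe sequences, the genome positions and the transcripts they stand for were not used here, so probes are given by name.

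A lincRNA is a long transcript that codes for no protein and comes from a stretch of genome between protein-coding genes. Many mouse lincRNA loci were first recognised from chromatin marks of active transcription, which are not specific to a strand. lincRNAs are often present at lower levels than mRNAs, and many are restricted to particular cell types, including cells of the immune system. Several are known to act on gene expression in the nucleus or the cytoplasm. The spleen is a lymphoid organ that also stores and clears blood cells, so its RNA is a mixture from many cell types.

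The 6 mice were female C57BL/6 mice aged 12 weeks, with 1 spleen and 1 single-colour array per mouse. The 3 EAE mice had been immunised with a myelin oligodendrocyte glycoprotein peptide (2 mg/mL), with pertussis toxin (200 ng) through the tail vein, a treatment that induces an autoimmune disease of the central nervous system used as a model of multiple sclerosis. The titles name the peptide MOG33-35 and the treatment protocol names it MOG35-55. For the 3 control mice, phosphate-buffered saline (PBS) replaced the peptide. Whether these mice also had the toxin is not settled by the labels. In a whole organ, fewer cells of a type and less RNA per cell cannot be told apart. The tissue label was not checked against cell markers here, because the files pair almost no probe with a gene name.

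Brightness differed between the groups before any scaling. The 75th percentile of the signal lay between 429 and 567 on PBS arrays and between 277 and 392 on EAE arrays. Levels below are log2 signals minus that percentile, so that 0 is the brightness that 75% of the spots on an array stay under. Well above background is the scanner software's own call for a spot, and probes that met it on at least 3 of the 6 arrays were tested. All PBS arrays were in the same scan as EAE 1 and 2, while EAE 3 belonged to another. The brightness of a probe depends on the oligonucleotide as well as on the amount of RNA, so no difference in RNA amount between probes was read from levels, and rankings by brightness describe the spots alone.

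Most mouse lincRNA probes did not meet the strict detection call, although most met looser ones. Of the 649 probes, 342 (52.7%) were not well above background on any array, against 24.1% of all probes. A further 103 met the call on 1 or 2 arrays and were not tested, 85 met it on 3 to 5 arrays and 119 (18.3%) on all 6, against 54.7% of all probes on all 6. The tested probes numbered 204, which is 31.4% of the mouse lincRNA probes and compares with 67.6% of all probes and 29.8% of the 1104 probes named for human lincRNAs. With looser calls the shares were higher: averaged over the arrays, 64.3% of + and 65.6% of - probes were positive and significant by the scanner software, and 64.8% and 66.2% lay above the 95th percentile of negative control spots. By strand, 93 of the 322 + probes (28.9%) and 111 of the 327 - probes (33.9%) were tested.

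The EAE arrays had fewer detected probes on average, as they did over all probes. Of the + probes, 101, 116 and 90 were well above background on PBS 1, 2 and 3 and 72, 73 and 97 on EAE 1, 2 and 3. These counts overlapped, since EAE 3 lay between PBS 3 and PBS 1. Of the - probes, 120, 127 and 115 were well above background in PBS and 85, 93 and 109 in EAE, and every EAE array lay below every PBS array. The share of + probes detected was 31.8% ± 4.05 in PBS and 25.1% ± 4.40 in EAE (SD, n = 3 per group), lower by -6.73 percentage points in EAE (exact two-sided permutation p = 0.2). The share of - probes was 36.9% ± 1.84 and 29.3% ± 3.74, with EAE minus PBS at -7.65 (two-sided exact permutation p = 0.1, and 3 against 3 arrays allow none smaller). Over all probes the share was 69.2% ± 1.54 in PBS and 61.6% ± 3.40 in EAE, a difference of -7.60, on EAE arrays that were dimmer. With both looser calls every EAE array lay below every PBS array, for both strands together by -8.17 points (positive and significant) and -7.50 points (above negative controls), each at the smallest exact permutation p of 0.1. The part of brightness in the loss of detected probes was not tested.

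Detection was lower for the + probes than for the - probes on each of the 6 arrays. The share of + probes minus that of - probes was -5.33, -2.81 and -7.22 percentage points on PBS 1, 2 and 3 and -3.63, -5.77 and -3.21 on EAE 1, 2 and 3. These values overlapped fully, and the gap between strands did not move with EAE beyond the spread between arrays (difference 0.916 points, exact two-sided permutation p = 0.7). The strand gap depended on how detection was called. With spots called positive and significant by the scanner software, the gap ran from -3.26 to 0.338 points. The probes named for human lincRNAs had a gap of -2.18 ± 0.318 points in PBS and -2.39 ± 0.530 in EAE.

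Numbers with both probes tested were a minority. Among the 317 numbers with both probes, 32 had both tested, 61 the + probe alone, 79 the - probe alone and 145 neither. The - probe was tested for 34.4% of the numbers whose + probe was tested and for 35.3% of those whose + probe was not. These shares stayed close on every array, for example 36.6% and 38.4% on PBS 1 and 31.5% and 28.7% on EAE 2. For probes well above background on all 6 arrays they were 31.5% and 18.3%, and for probes detected on any array the order turned, at 48.2% and 54.5%. Among 547 human lincRNA numbers with both probes, the - probe was tested for 37.6% where the + probe was and for 28.5% where it was not. No number with a probe of a single sign had that probe tested.

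The spots of tested mouse lincRNA probes were mostly dim, a description that carries no comparison of RNA amounts. The median of their mean levels over the 6 arrays was -2.72, against -1.10 for all tested probes, and 19 of the 204 (9.31%) lay above 0, against 36.2% of all tested probes. The tested human lincRNA probes were similarly dim, with a median of -2.72 and 12.8% above 0. By strand the medians were -2.64 for + and -2.72 for -. The per-array median of the + probes on the PBS arrays was -2.48, -2.44 and -2.54, and on the EAE arrays -2.78, -2.65 and -2.53, with EAE 3 inside the PBS range. For the - probes these medians were -2.65, -2.48 and -2.73 on PBS arrays and -2.84, -2.65 and -2.52 on EAE arrays, again with overlap. The gap between these medians, + minus -, changed by -0.12 between the groups (exact two-sided permutation p = 0.2, where 0.1 is the smallest possible). The gaps of single arrays overlapped between the groups.

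Of the 5 brightest probes of each strand, 8 in all did not pass the test. The brightest - probe, mouselincRNA0161-_P1, had levels of 7.60, 7.50 and 7.37 in PBS and 7.35, 7.67 and 8.01 in EAE. Its groups overlapped, and EAE minus PBS was 0.19 ± 0.22 on the log2 scale (SE, n = 3 per group, limma adjusted p = 0.618). The probe mouselincRNA1606-_P1 had 6.91, 6.87 and 7.00 in PBS and 7.20, 6.85 and 6.88 in EAE, a difference of 0.05 ± 0.18 (limma adjusted p = 0.890). The probes mouselincRNA0772-_P1 and mouselincRNA0522-_P1 differed by -0.31 ± 0.21 and -0.38 ± 0.27, both with overlapping groups. On the + strand, mouselincRNA0706+_P1 lay at 4.20, 4.35 and 4.12 in PBS and 4.64, 4.19 and 4.88 in EAE, a difference of 0.35 ± 0.22 (limma adjusted p = 0.360). The probes mouselincRNA0513+_P1, mouselincRNA1294+_P1 and mouselincRNA1437+_P1 differed by -0.01 ± 0.23, 0.05 ± 0.28 and -0.30 ± 0.23. None of these 8 probes passed the test in any of the 19 alternatives run, and the signs of mouselincRNA0161-_P1, mouselincRNA1606-_P1, mouselincRNA0513+_P1 and mouselincRNA1294+_P1 turned in some of them. The 19 are not all distinct. Fitting the scan as a block gave the same fit as leaving out EAE 3, and the authors' deposited table nearly repeats quantile normalization. The remaining 2 of the 10 brightest, mouselincRNA0735+_P1 and mouselincRNA1235-_P1, were higher in EAE.

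Of the 204 tested mouse lincRNA probes, 15 differed between EAE and PBS spleens, 11 of them higher in EAE and 4 lower (limma, Benjamini-Hochberg adjusted p under 0.05 over all 41178 tested probes). That share of 7.35% compares with 8.84% of all tested probes, of which 6.18% were higher and 2.66% lower. The groups did not overlap for 47 of the 204 probes, 24 higher and 23 lower, a share of 23.0% against 33.1% of all tested probes (19.5% higher and 13.6% lower). An unadjusted p under 0.05 was reached by 47 probes (23.0%), against 26.4% of all tested probes, and 32 of these did not pass the adjusted threshold. The 11 rises were 2.30-fold to 10.1-fold in the fit and the 4 falls 1.70-fold to 13.9-fold, where folds of probes at background in a group depend on the scanner software's floor. All 15 had groups without overlap. Other background corrections and scalings gave 20 higher and 6 lower (normexp), 12 and 2 (cyclic loess), 11 and 7 (normexp with quantile normalization) and 12 and 7 (dim signals raised to the array's lowest signal well above background). The share called over all tested probes was 13.0%, 8.94%, 10.2% and 10.3% in that order. Within the shared scan, which leaves out EAE 3, 11 were higher and 10 lower, with 8.11% of all tested probes called. Leaving out EAE 2 gave 12 higher and 7 lower, PBS 3 gave 8 and 6, PBS 1 gave 8 and 0, PBS 2 gave 10 and 0 and EAE 1 gave 12 and 3. Of all tested probes, these fits called 11.4%, 4.29%, 3.76%, 3.41% and 6.90% in the same order.

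Both very bright probes among the calls were higher in every EAE spleen. The probe mouselincRNA0735+_P1 had levels of 2.97, 4.08 and 3.91 in PBS and 6.30, 6.53 and 6.44 in EAE. The lowest EAE spleen was more than 2 log2 units above the highest PBS spleen. Its mean went from 3.65 ± 0.59 (SD) to 6.42 ± 0.11, a difference of 2.77 ± 0.30 (SE), or 6.81-fold (n = 3 per group, limma adjusted p = 0.00197). Before scaling it gave 3887, 9585 and 6446 in the PBS spleens and 21889, 30289 and 33985 in the EAE spleens. The unscaled signal was thus higher on the dimmer EAE arrays. The probe mouselincRNA1235-_P1 had levels of 4.04, 4.93 and 4.72 in PBS and 6.43, 6.70 and 6.66 in EAE, again with a wide gap between the groups. It was 4.10-fold higher in EAE, by 2.04 ± 0.26 on the log2 scale (limma adjusted p = 0.00377), and unscaled it gave 8106 to 17243 on PBS arrays and 23972 to 39553 on EAE arrays. Both were called in all 19 alternatives, with log2 differences of 2.43 to 2.98 and 1.76 to 2.22.

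A second group of rises was of - probes dimmer than the very bright ones. In PBS, all but mouselincRNA0725-_P1 lay near or below -2.72, the median level of tested mouse lincRNA probes. The probe mouselincRNA0725-_P1 had levels of -1.11, -0.27 and -0.60 in PBS and 2.52, 1.96 and 2.11 in EAE. It was well above background on all 6 arrays, and every EAE spleen lay over 2 log2 units above every PBS spleen. The rise was 7.22-fold, 2.85 ± 0.27 on the log2 scale (SE, n = 3 per group, limma adjusted p = 0.00139). The probe mouselincRNA0664-_P1 had -3.14, -2.75 and -2.63 in PBS and -0.62, 0.07 and 0.21 in EAE, a 6.62-fold rise (limma adjusted p = 0.00151). The probe mouselincRNA0907-_P1 had -3.97, -2.64 and -2.73 in PBS and -0.66, -0.35 and -0.59 in EAE, a 5.99-fold rise (limma adjusted p = 0.00537). PBS 1 was the lowest array for these probes and for both of the very bright ones. The probe mouselincRNA0935-_P1 had -2.87, -2.53 and -3.01 in PBS and -0.88, -0.72 and -1.21 in EAE, a 3.64-fold rise with an SD near 0.25 in each group (limma adjusted p = 0.00258). These 4 probes were also called in all 19 alternatives. Their log2 differences were smaller with normexp, at 2.55, 1.94, 1.72 and 1.24.

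The probes mouselincRNA1099-_P1 and mouselincRNA0869-_P1 met the strict detection call in EAE spleens alone. Each met it in all 3 EAE spleens and in 0 PBS spleens, a pattern found in 2 of the 649 mouse lincRNA probes and in 0.179% of all probes. Missing this call does not mean that a PBS spot had no signal. Levels of mouselincRNA1099-_P1 were -4.38, -5.31 and -4.89 in PBS and -1.02, -2.32 and -1.24 in EAE. The bound on its rise was at least 7.32-fold (limma adjusted p = 0.00255). Levels of mouselincRNA0869-_P1 were -5.23, -4.74 and -4.65 in PBS and -2.34, -1.57 and -1.45 in EAE, and the bound was at least 6.12-fold (limma adjusted p = 0.00139). The bound divides the EAE mean by a PBS mean in which each array counts with the probe's own signal or with that array's dimmest detected signal, whichever is higher. It holds for the processed signals, since with normexp the log2 differences were 1.61 and 1.44. Both entered the test through their EAE detection alone, so passing it is no independent support for a rise, and the filter on all 6 arrays leaves them out. In the fit with no filter on dim probes their limma adjusted p-values were 0.00662 and 0.00438.

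The 3 remaining rises were smaller and less steady. The probe mouselincRNA1177-_P1 had -3.56, -4.01 and -3.64 in PBS and -2.23, -2.50 and -2.87 in EAE, a 2.30-fold rise (limma adjusted p = 0.0214). The probe mouselincRNA0288+_P1, well above background on 1 of 3 PBS arrays, had -5.07, -4.10 and -4.45 in PBS and -3.24, -2.13 and -2.60 in EAE (log2 difference 1.88 ± 0.35, limma adjusted p = 0.0186). The probe mouselincRNA0154+_P1, well above background on 2 of 3 PBS arrays, had -4.25, -3.37 and -4.00 in PBS and -2.80, -2.21 and -2.06 in EAE (1.52 ± 0.30, limma adjusted p = 0.0224). Both + probes met the filter only through their EAE arrays, so passing it is no independent support for a rise. With no filter on dim probes their limma adjusted p-values were 0.0393 and 0.0472. In all 3 every EAE spleen lay above every PBS spleen, by less than 1 log2 unit at the nearest. Their calls were lost when single arrays were left out. Without PBS 1 the adjusted p was 0.0604, 0.0640 and 0.0827 in that order, and without PBS 3 it was 0.0675, 0.0513 and 0.0771. The first was also lost without PBS 2 (0.0996) and the last without EAE 3 (0.0520). With normexp the differences shrank to 0.75, 0.96 and 0.85 in the same order, and with normexp and quantile normalization to 0.49, 0.67 and 0.58, where the first was not called (adjusted p 0.0520).

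The 4 falls were all lost under some alternatives. The probe mouselincRNA1267-_P1 was well above background on all 6 arrays, with -1.13, -0.87 and -0.92 in PBS and -1.65, -1.94 and -1.62 in EAE. The log2 difference was -0.77 ± 0.19 (limma adjusted p = 0.0453), and it was called in 5 of 19 alternatives. Leaving out any single array lost it, with adjusted p from 0.0547 to 0.175. The probe with the next number, mouselincRNA1266+_P1, had -2.98, -2.73 and -2.98 in PBS and -3.68, -3.99 and -3.85 in EAE, where 1 of 3 arrays was well above background. Its fitted difference was -0.95 ± 0.18 (limma adjusted p = 0.0210), and with normexp it was -0.05 (adjusted p = 0.836). It was called in 11 of 18 alternatives, and not without PBS 1, PBS 2 or PBS 3 (adjusted p 0.0748, 0.105 and 0.0797). It met the filter only through its PBS arrays, so its call is no independent support for a fall. Whether the transcripts of these numbers neighbour each other was not examined.

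Both of the larger falls rested on EAE arrays at or near background. Their probes met the filter only through PBS arrays, so passing it is no independent support for a fall. The probe mouselincRNA0499+_P1 had -1.85, -1.80 and -1.85 in PBS, almost the same level in all 3 spleens, and -3.82, -4.98 and -3.03 in EAE. Unscaled, it gave 119 to 163 on the PBS arrays and 10.4 to 48.0 on the EAE arrays, of which EAE 3 alone was well above background. The fitted difference was -2.11 ± 0.44 (limma adjusted p = 0.0283), and it was -1.53 with dim signals raised to the floor and -0.69 with normexp. With no filter on dim probes it was not called (adjusted p 0.0558). The probe mouselincRNA1453-_P1 had the largest SD of the 15 called probes in both groups, with -1.04, -0.13 and -2.21 in PBS and -5.73, -2.93 and -6.12 in EAE. Unscaled, it gave 239.8, 516.8 and 92.3 for the control spleens, against 5.21, 43.3 and 5.63 for EAE. Among the EAE spleens, EAE 2 alone was well above background. The fitted difference of -3.80 ± 0.87 (limma adjusted p = 0.0378) was -2.39 with dim signals raised to the floor and -1.27 with normexp (adjusted p 0.0516). It was called in 7 of 18 alternatives and also lost with no filter, a trended robust prior, array weights, cyclic loess and normexp with quantile normalization. The call of mouselincRNA0499+_P1 was lost without PBS 1, PBS 2, PBS 3 or EAE 1 (adjusted p 0.0873, 0.114, 0.0747 and 0.0636) and that of mouselincRNA1453-_P1 without PBS 1, PBS 2, EAE 1 or EAE 3 (0.108, 0.147, 0.0995 and 0.0794). Just outside the threshold lay mouselincRNA0544+_P1 (log2 difference -1.51, limma adjusted p = 0.0555) and mouselincRNA1224-_P1 (-1.55, limma adjusted p = 0.0556). Both were well above background on 0 EAE arrays, and these values shrank to -0.37 and -0.34 with signals raised to the floor and to -0.04 and -0.03 with normexp.

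Every called probe had a probe of the opposite sign on the array, and none of those 15 was called. Of the 15, 8 were not well above background on any array, 3 were so on 1 array and 4 were tested. Only those 4 could be called. With 8.84% of all tested probes called, the lack of a call among 4 is not a result about them. For mouselincRNA0735, the + probe was among the brightest on its strand while the - probe, mouselincRNA0735-_P1, stayed at a signal of 5.37 to 6.10 on all 6 arrays, where negative-named probes had array medians of 5.14 to 6.31. The - probe of mouselincRNA0499 was likewise at 4.45 to 6.02 and that of mouselincRNA1266 at 5.20 to 5.74. The + probe of mouselincRNA0725 was at 5.33 to 12.2. After scaling, the level of mouselincRNA0735-_P1 was -6.44 in PBS and -5.88 in EAE although its unscaled signals overlapped, and no change was read from the 8 undetected probes.

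The 4 numbers with both strands tested and one called allowed the strands to be compared within the same arrays. Among the 91 mouse and human lincRNA numbers with both probes tested, the change in EAE differed between the + and the - probe for 9 (9.89%), 4 of them among the 32 mouse numbers (limma on the per-array difference, adjusted p under 0.05 over the 91 numbers). An unadjusted p under 0.05 was reached by 6 of the 32, against 23.1% of the 91. These 4 were the mouse numbers in which one probe was called, and in each it was the - probe that was higher in EAE. The test of the difference uses the same arrays as the call of the - probe and adds the spread of the + probe.

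For mouselincRNA0935 the + probe had levels of -1.07, -1.13 and -2.37 in PBS and -1.78, -2.37 and -2.30 in EAE, a log2 difference of -0.63 ± 0.37 with overlap, beside 1.86 for the - probe. The difference of the changes, + minus -, was -2.49 ± 0.47 (limma adjusted p = 0.0138). For mouselincRNA1235 the + probe had -1.10, -1.08 and -0.91 in PBS and -0.50, -1.30 and -1.31 in EAE, a difference of -0.01 ± 0.26 whose sign turned under 10 alternatives, beside 2.04 for the - probe. Here the changes differed by -2.04 ± 0.48 (limma adjusted p = 0.0317). In mouselincRNA0664 and mouselincRNA0907 the + probes were well above background on 3 and 4 arrays. Their changes were -0.26 ± 0.45 and -0.02 ± 0.41, and the changes of the strands differed by -2.99 ± 0.70 and -2.61 ± 0.62 (limma adjusted p = 0.0317 each). The signs of both + probes turned in some alternatives, normexp and raised signals among them.

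Fewer numbers passed in each fit that left out an array. Leaving out PBS 1, PBS 2 or EAE 2 left 0 mouse numbers, PBS 3 left 1, EAE 3 left 2 and EAE 1 left 3. With no filter on dim probes, many more numbers were tested and 0 mouse numbers passed. The other 28 mouse numbers did not pass. The lowest adjusted p-values among them were those of mouselincRNA1377 (-1.51 ± 0.59, limma adjusted p = 0.162) and mouselincRNA0305 (1.19 ± 0.48, limma adjusted p = 0.174). Over the 32 numbers, the EAE changes of the + and the - probe had the same sign in 17, with Pearson's r of 0.16 and Spearman's rho of 0.17 as a description, across numbers measured on the same arrays.

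By strand, 5 of 93 tested + probes (5.38%) and 10 of 111 tested - probes (9.01%) were called, against 8.84% of all tested probes. The + calls were 3 higher and 2 lower, and the - calls 8 higher and 2 lower. The 8 probes called in every alternative that tested them (19, or 18 for mouselincRNA0869-_P1 and mouselincRNA1099-_P1) were 7 - probes and 1 + probe, all higher in EAE. Among the 7 - probes, mouselincRNA0869-_P1 and mouselincRNA1099-_P1 entered the test through their EAE detection alone. Their calls are thus no independent support for a rise. No share over all called probes is given for calls kept in every alternative, so the count of 8 describes these probes alone. The difference in the share of calls between strands was not tested, since probes of an array are not replicates. The median log2 difference was -0.01 for + and -0.20 for - probes, beside -0.02 for all tested probes. Signs of these medians depended on the background correction, with 0.24 and 0.18 under normexp, which moved the median of all tested probes to 0.14. Per array, the median deviation of + probes minus that of - probes took the values 0.05, -0.03 and -0.15 for PBS, against 0.05, -0.16 and 0.09 for EAE, a difference of 0.04 (exact two-sided permutation p = 0.8). Without EAE 3 the strand medians were -0.20 and -0.19.

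More probes were detected in PBS spleens alone than in EAE spleens alone. Probes well above background on all PBS arrays and 0 EAE arrays numbered 11 (4 + and 7 -), or 1.69% of the mouse lincRNA probes against 1.94% of all probes. Those on 2 PBS arrays and 0 EAE arrays numbered 21, or 3.24% against 1.85% of all probes. None of the 11 was called in the limma fit, which called 2.66% of all tested probes lower in EAE. A count over so few probes is not a result about them. The largest bound was that of mouselincRNA0208-_P1, at least 1.44-fold lower in EAE, with levels from -3.78 to -2.89 in PBS and from -4.72 to -3.61 in EAE. Its groups overlapped (limma adjusted p = 0.218), and with normexp its log2 difference turned to 0.015. The probes mouselincRNA0544+_P1 and mouselincRNA1224-_P1 followed, at least 1.29-fold and 1.27-fold lower, without overlap. For mouselincRNA0892-_P1 the bound was at least 1.01-fold and its groups overlapped, and mouselincRNA0364-_P1 had no bound above 1. The EAE arrays were dimmer, and the part of that in these patterns was not tested.

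Replicate spread was larger for mouse lincRNA probes than for the array as a whole, and larger in EAE. The median SD over the tested mouse lincRNA probes was 0.27 in PBS and 0.46 in EAE on the log2 scale, against 0.18 and 0.32 over all tested probes. This was not particular to them, with 0.25 and 0.47 for the tested human lincRNA probes. Over all probes detected on 3 to 5 arrays the median SD was 0.27 in PBS and 0.56 in EAE. The SD was larger in EAE for 75.5% of the mouse lincRNA probes and for 75.7% of all tested probes. The EAE spread includes the separate scan of EAE 3, and spread due to scan and to mice cannot be told apart.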

How the data were processed

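Spleen RNA of 3 EAE and 3 PBS mice was hybridised to single-colour (Cy3) arrays after random-primed amplification, per the labels' protocols. Deposited intensity values came from Agilent Feature Extraction 11.0.1.1 and were background-subtracted and detrended within each array, per the file headers. The authors' deposited log2 table matched quantile-normalized log2 signals (median difference 0.000732) and was an alternative. The tool behind it is not given in the sources used here.

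From these, log2 processed signals minus the array's 75th percentile over 61200 non-control spots were computed, leaving out 138 flagged spots and 15 negative-named probes. Probes that 3 or more of the 6 arrays detected were fitted with limma 3.58.1 in R 4.3.3 (lmFit, eBayes, EAE against PBS, no covariates), with Benjamini-Hochberg adjustment over all 41178 at 0.05. The fit was tested on simulated data. Single values were compared with exact two-sided permutation tests over arrays. The number of arrays limits the precision. Named probes were all called ones, those of the same number, the 5 brightest of each strand, up to 5 in each direction that were detected in 1 group alone, and the 2 nearest the threshold. The members and lists were chosen with earlier results of these data known. Other settings were quantile normalization, the deposited table, normexp, other filters on dim probes, blocks for replicate number and scan, a trended robust prior, array weights and omission of each array. Normexp used median signals with an offset of 50. Normexp with quantile normalization, cyclic loess, median scaling and the raised floor were added after seeing the data.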

Additional observations from a re-analysis of the deposited data

Results flagged for a closer look

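Among the 445 mouse lincRNA probes that were not tested, 3 gave a signal well above background on 2 EAE arrays and on 0 PBS arrays. This share of 0.462% compares with 0.22% of all probes, and the reverse pattern was found in 21 mouse lincRNA probes. The probe mouselincRNA0392-_P1 had levels of -5.72, -6.46 and -5.47 in PBS and -4.11, -3.43 and -3.66 in EAE. The probe mouselincRNA0292+_P1 had -4.23, -4.93 and -4.65 in PBS and -3.78, -3.17 and -3.94 in EAE. The probe mouselincRNA0996-_P1 had -6.21, -5.22 and -5.57 in PBS and -3.16, -5.84 and -2.23 in EAE, with EAE 1 and 3 well above background. Its groups overlapped, since EAE 2 lay below PBS 2 and PBS 3. The bounds were at least 1.59-fold, 1.69-fold and 1.58-fold higher in EAE, and they have no test.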

How the results depend on the processing

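Against 15 called probes (11 higher, 4 lower, 5 + and 10 -), normexp gave 26 (20 higher, 9 + and 17 -). Over all tested probes, normexp called 13.0%, against 8.84% in the main fit. With no filter on dim probes 0 were lower, and 0 numbers differed by strand, against 4. With a filter on all 6 arrays 2 were lower and 2 were +. The share called over all tested probes was 3.72% with no filter and 12.5% with the filter on all 6 arrays. The scan block, the same fit as leaving out EAE 3, gave 10 lower calls, against 7 with normexp and quantile normalization, 2 with cyclic loess and 7 with signals raised to the floor. With the replicate number as a block, 23 were called (12 higher, 11 lower, 8 +), and the strand difference passed for 4 numbers. Over all tested probes, 8.98% were called with that block. Same-numbered arrays deviated together with correlations of 0.15, 0.04 and -0.14. These values do not settle whether mice of the same number were handled together, which was not tested. With each array left out in turn, calls ranged from 8 to 21, higher from 8 to 12, lower from 0 to 10, + from 1 to 7, - from 7 to 14 and strand differences from 0 to 3. The share called over all tested probes ran from 3.41% to 11.4% in these fits. The strand contrasts without a called difference changed sign. The change in level by strand was 0.073 with no filter. The change by strand was -0.10 with the filter on all 6 arrays and -0.045 to 0.13 over the fits that omit an array. The detection contrast was -0.13 to 2.07 points with an array left out. The cause was not tested.

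None of the 15 called probes changed sign under any alternative, and 10 of the 17 uncalled named probes did. For the 15 this was in part fixed in advance. Their groups did not overlap, so omitting or weighting arrays could not turn a sign. The filters, the prior and the replicate block leave the difference itself unchanged. Under quantile normalization, the turned log2 value was -0.038 for mouselincRNA0161-_P1, 0.021 for mouselincRNA1235+_P1, -0.046 for mouselincRNA1294+_P1 and -0.18 for mouselincRNA1606-_P1. Under the authors' deposited table, the turned log2 value was -0.037 for mouselincRNA0161-_P1, 0.020 for mouselincRNA1235+_P1, -0.042 for mouselincRNA1294+_P1 and -0.20 for mouselincRNA1606-_P1. Under normexp, the turned log2 value was 0.015 for mouselincRNA0208-_P1, 0.30 for mouselincRNA0364-_P1, 0.26 for mouselincRNA0664+_P1, 0.19 for mouselincRNA0892-_P1, 0.32 for mouselincRNA0907+_P1, 0.057 for mouselincRNA1235+_P1, -0.0050 for mouselincRNA1294+_P1 and -0.14 for mouselincRNA1606-_P1. Under the scan block, the turned log2 value was 0.18 for mouselincRNA0664+_P1 and 0.13 for mouselincRNA1235+_P1. Under array weights, the turned log2 value was 0.067 for mouselincRNA0513+_P1. Under normexp plus quantile normalization, the turned log2 value was -0.061 for mouselincRNA0161-_P1, 0.038 for mouselincRNA0907+_P1, 0.016 for mouselincRNA1235+_P1, -0.040 for mouselincRNA1294+_P1 and -0.27 for mouselincRNA1606-_P1. Under cyclic loess, the turned log2 value was -0.10 for mouselincRNA0161-_P1, 0.073 for mouselincRNA0907+_P1, 0.065 for mouselincRNA1235+_P1, -0.017 for mouselincRNA1294+_P1 and -0.22 for mouselincRNA1606-_P1. Under median scaling, the turned log2 value was 0.014 for mouselincRNA0513+_P1 and 0.013 for mouselincRNA1235+_P1. Under raised signals, the turned log2 value was 0.21 for mouselincRNA0364-_P1, 0.22 for mouselincRNA0664+_P1 and 0.017 for mouselincRNA0907+_P1. Omitting single arrays spread the values over -0.44 to 0.018 for mouselincRNA0364-_P1, -0.12 to 0.21 for mouselincRNA0513+_P1, -0.77 to 0.18 for mouselincRNA0664+_P1, -0.55 to 0.30 for mouselincRNA0907+_P1, -0.28 to 0.13 for mouselincRNA1235+_P1, -0.20 to 0.24 for mouselincRNA1294+_P1 and -0.063 to 0.12 for mouselincRNA1606-_P1. Signal over background (array 75th percentile divided by the negative-probe median) ran from 78.0 to 102 for PBS and from 52.0 to 76.2 for EAE, and limits what dim probes can show.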
